A study of Mus musculus with 31 samples.

Results

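The transcripts of 8 genes that mark Schwann cells and the myelin sheath were followed in the gastrocnemius, a calf muscle, of MuRF1 -/- and wild-type mice of both sexes on a high-fat or a chow diet. The genes are Pmp22, Mbp, Prx, Mag, Sox10, Egr2, S100b and Ngfr, found by symbol among 39017 gene identifiers counted in every library. Each symbol matched 1 identifier, and all 8 were among the 14024 genes that passed a filter on low counts. RNA sequencing of 31 libraries was deposited, and 30 of them fall into 8 groups.

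MuRF1, encoded by Trim63, is a ubiquitin ligase of striated muscle. The groups were female MuRF1 -/- on HFD (3 mice), female wild type on HFD (4), female MuRF1 -/- on chow (4) and female wild type on chow (4). The male groups were MuRF1 -/- on HFD (3), wild type on HFD (4), MuRF1 -/- on chow (4) and wild type on chow (4). HFD is a 45% high-fat diet with lard as the fat source, which began at 8 weeks, and tissue from every group was collected at 30 weeks. The labels give neither the strain nor the way the MuRF1 allele was made, and the study asks what the knockout, sex and the diet do to the transcripts of this muscle. In 19 of the 31 records the animal in the title is not the animal in the description, so a library was given the group of the title that carries its described animal. Only 1 animal appears in no title and its library was left out.

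Motor and sensory axons run through skeletal muscle in small nerve branches, and Schwann cells wrap them. In a myelinating Schwann cell, Sox10 and then Egr2 switch on the genes for myelin proteins, which are inserted into or attached to the wrapped membrane. Ngfr, the low-affinity neurotrophin receptor p75, is instead typical of immature, non-myelinating and injured Schwann cells, and S100b, a calcium-binding protein, is a general Schwann cell marker. In homogenized muscle, fewer Schwann cells, less RNA in each of them and a change in RNA of the same genes from other cells cannot be told apart.

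On mm10, Pmp22 (ENSMUSG00000018217) lies at chr11:63128982-63159547 and Prx (ENSMUSG00000053198) at chr7:27499324-27520214, both on the plus strand. Mbp is ENSMUSG00000041607. Mag (ENSMUSG00000036634) lies at chr7:30899176-30914873 on the minus strand. The transcription factor genes lie at chr15:79154908-79165240 on the minus strand (Sox10, ENSMUSG00000033006) and chr10:67535475-67542188 on the plus strand (Egr2, ENSMUSG00000037868). S100b (ENSMUSG00000033208) lies at chr10:76253853-76261159 on the plus strand and Ngfr (ENSMUSG00000000120) at chr11:95568818-95587735 on the minus strand. All 8 are annotated as protein-coding.

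The DNA upstream of the genes is shown because Sox10 and Egr2, both among the 8, are known regulators of myelin genes. RefSeq start sites on GRCm38.p6 were at hand for 6 of the 8 genes. The 250 bases before the most upstream start are given, 5′ to 3′ along the gene, for 3 myelin genes and S100b, with a match to a searched motif in capitals.
Pmp22, chr11:63128732-63128981, plus strand: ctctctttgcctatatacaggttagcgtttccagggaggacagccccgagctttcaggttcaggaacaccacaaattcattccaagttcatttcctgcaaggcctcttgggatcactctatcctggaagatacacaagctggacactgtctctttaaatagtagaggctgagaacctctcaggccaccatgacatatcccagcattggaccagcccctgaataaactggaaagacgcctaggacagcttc
Prx, chr7:27499074-27499323, plus strand: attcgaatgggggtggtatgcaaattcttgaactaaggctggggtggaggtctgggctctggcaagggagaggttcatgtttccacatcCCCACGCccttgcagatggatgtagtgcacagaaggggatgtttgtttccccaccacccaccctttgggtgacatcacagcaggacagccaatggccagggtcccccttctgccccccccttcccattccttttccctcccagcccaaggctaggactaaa
Mag, chr7:30914923-30915172, minus strand: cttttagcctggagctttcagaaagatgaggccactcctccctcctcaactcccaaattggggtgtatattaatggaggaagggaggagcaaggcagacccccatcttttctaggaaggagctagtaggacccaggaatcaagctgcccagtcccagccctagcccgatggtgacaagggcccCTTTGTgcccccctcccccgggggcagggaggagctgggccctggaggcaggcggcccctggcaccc
S100b, chr10:76253586-76253835, plus strand: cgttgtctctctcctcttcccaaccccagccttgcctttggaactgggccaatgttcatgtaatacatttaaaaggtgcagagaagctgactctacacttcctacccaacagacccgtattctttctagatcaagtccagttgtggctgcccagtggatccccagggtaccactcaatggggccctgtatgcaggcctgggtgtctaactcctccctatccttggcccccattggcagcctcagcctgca
Searched on both strands were ACAAAG and ACAAT, the core letters bound by SOX factors, and GCGTGGG, the core bound by EGR factors. The Prx window held 1 EGR core 161 bases before the start, and the Mag window held 1 SOX core of the ACAAAG form 67 bases before the start. Both are read on the opposite strand, and so appear above as CCCACGC and CTTTGT. The windows of Pmp22 and S100b held none of these letters. Of 32851 RefSeq windows of this length, 4.30% held GCGTGGG, 16.5% held ACAAAG and 27.7% held ACAAT. A match is a stretch of letters and not a measured binding site.

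The libraries held 9342028 to 14919379 counts, and 3 counts correspond to 0.201 to 0.321 CPM (read counts scaled by library size, the unit of all levels). Library sizes were adjusted by the trimmed mean of M values. This floor, the Krt10 levels of this paragraph and the levels of the library left out are scaled by library totals without that adjustment. Trim63 lay at 0.487 to 7.75 CPM in the 14 MuRF1 -/- libraries and at 107 to 271 CPM in the 16 wild-type libraries. Acta1, Ckm and the other fibre genes of a list of 7 summed to 98310 CPM or more in every library. The library female wild type chow 3 stood apart for the genes studied here: it was the highest of the 30 for 7 of the 8. Their summed level was 284 CPM there, against a median of 83.7 CPM in the other 29 libraries. The same library and 2 of female MuRF1 -/- on chow (1 and 3) held 22.4 to 47.4 CPM of the skin keratin Krt10, and the other 27 held at most 2.82 CPM. The main counts are given with and without female wild type chow 3.

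All 8 genes were detected in every library, at levels that differed widely. Pmp22, a membrane protein of compact myelin, was the most abundant, with a median of 39.1 CPM and 16.6 CPM per kilobase of exon over the 30 libraries. Mbp, which holds the inner faces of the myelin membrane together, had a median of 3.27 CPM per kilobase, and Prx (periaxin), a scaffold of the Schwann cell plasma membrane, one of 2.02. S100b had a median of 1.10 CPM per kilobase. The transcription factors Sox10 and Egr2 had medians of 0.527 and 0.329 CPM per kilobase. Ngfr had 0.252, and Mag, an adhesion protein of the membrane next to the axon, had 0.217. Several genes rest on few reads: the lowest counts in a library were 9 for Sox10, 4 for Egr2, 2 for Mag, 2 for S100b and 1 for Ngfr. Exons of Prx share 300 bases with the antisense gene Gm15541, to which 37 counts were assigned over all libraries, against 4749 for Prx.

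The spread over libraries was widest for Ngfr. Its highest level was 66.6 times its lowest, which was 1 read and so under 3 counts, and 51.0 times its second lowest. S100b spanned 33.9 times, or 11.2 times without its lowest library, which held 2 reads. Pmp22 spanned 5.17 times, or 3.14 times without female wild type chow 3. The coefficient of variation over the 30 libraries was 92.3% for Ngfr and between 40.4% and 62.4% for the other 7. The plot of every library shows that library 3 lies far above the rest of female wild type on chow in every gene but Ngfr.

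**Figure D1:**
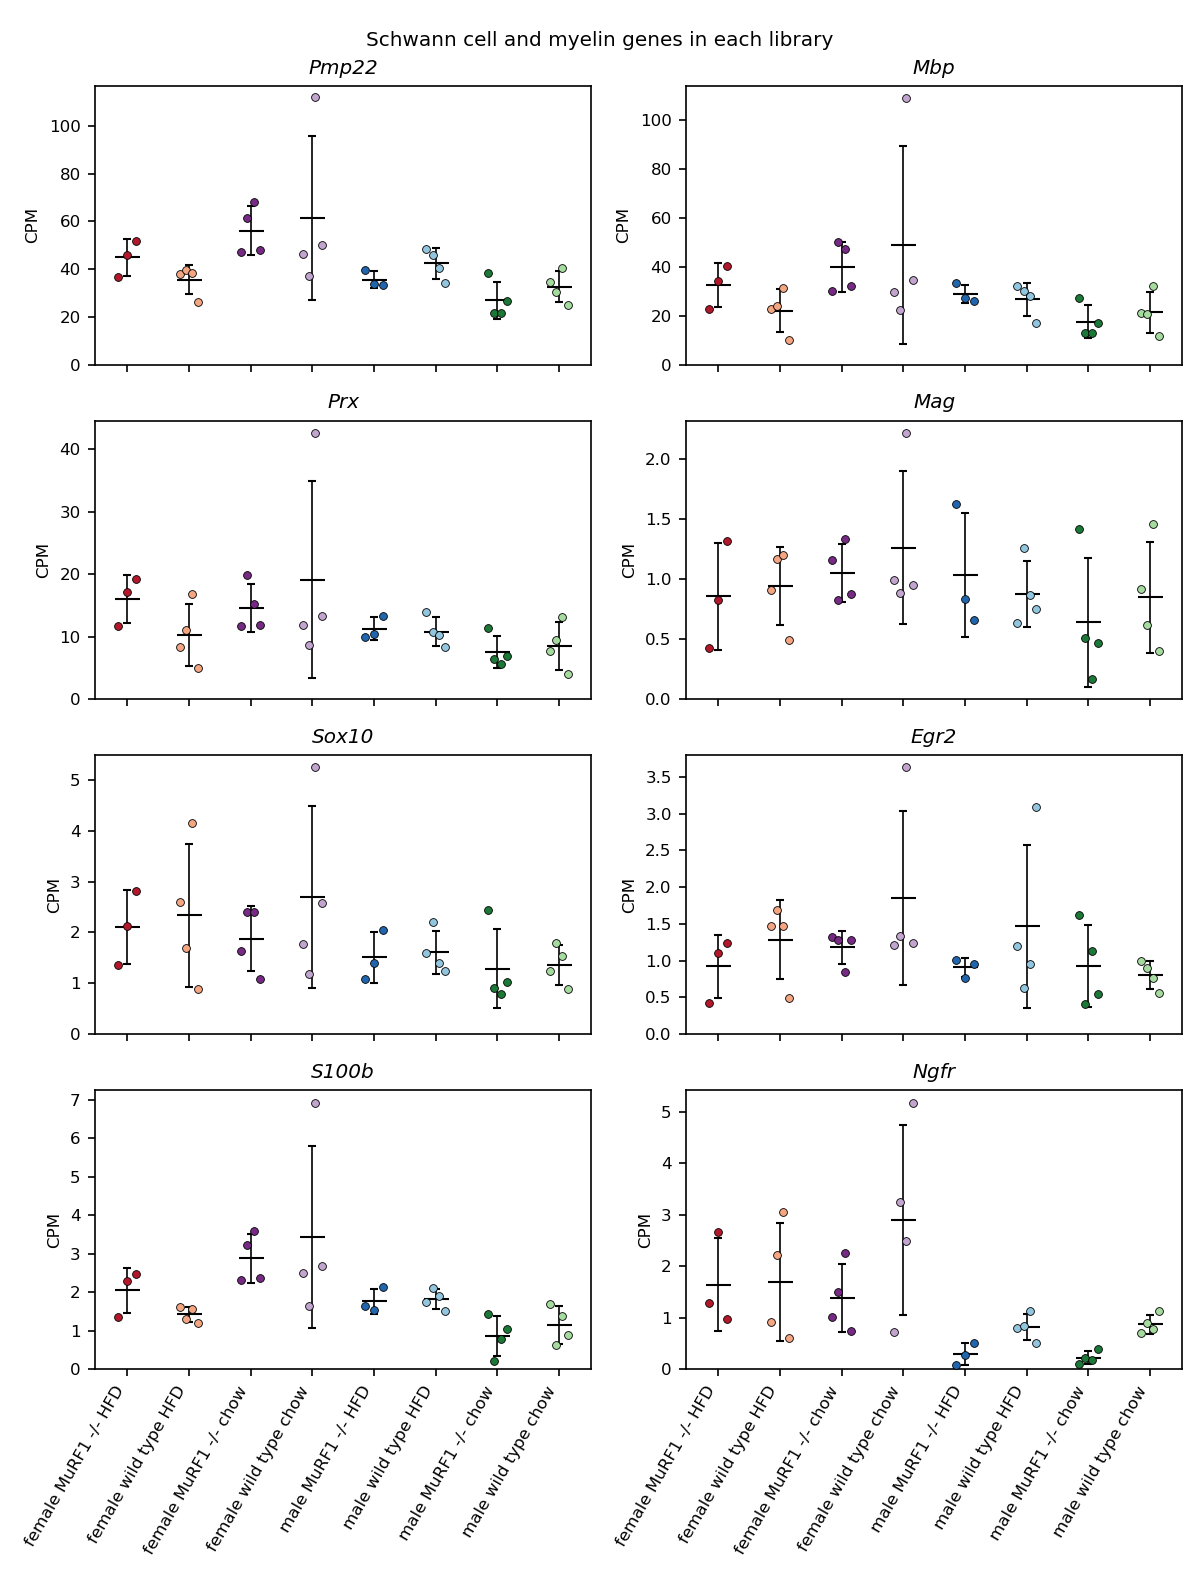
CPM of each of the 8 genes (vertical axes, linear, each from 0) in every library, by group along the horizontal axis. Points are libraries, and bars are the group mean ± SD (n = 3 or 4). Female wild type chow 3 is the top point of 7 panels, at 112 CPM for Pmp22 and 109 CPM for Mbp, and in the Ngfr panel the 2 male MuRF1 -/- groups lie lowest.

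On chow, 7 of the 8 genes were higher in females than in males. Sex was compared as the female minus male difference averaged over genotype, and the tests are edgeR's quasi-likelihood F-test with Benjamini-Hochberg adjustment over all 14024 genes. A gene is called at an adjusted p under 0.05. The chow and HFD strata of the sex comparison were added after the data had been seen.

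Pmp22 ran from 37.3 over a median of 49.1 to 112 CPM in 8 chow-fed females, against 21.7, 28.5 and 40.4 CPM in 8 chow-fed males. Of the females, 7 were above every male. The log2 fold change was 0.99 ± 0.18 (SE; adjusted p = 9.92e-05).

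Mbp had 22.3, 33.5 and 109 CPM as the lowest, median and highest of chow-fed females, and 11.6, 19.0 and 32.1 CPM in chow-fed males. The groups overlapped, with 5 of 8 females above every male. The fold change was 1.19 ± 0.30 on the log2 scale (adjusted p = 0.0023).

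S100b had the largest fold change on chow after Ngfr. It had 1.63, 2.59 and 6.92 CPM in chow-fed females and 0.204, 0.954 and 1.70 CPM in chow-fed males (lowest, median, highest). Only the lowest female and the highest male overlapped, and the log2 fold change was 1.66 ± 0.27 (adjusted p = 1.08e-05).

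Prx was higher in chow-fed females by 1.05 ± 0.30 (adjusted p = 0.0060), Sox10 by 0.77 ± 0.31 (0.0384) and Egr2 by 0.78 ± 0.32 (0.0448), all as log2 fold changes. Mag did not pass, at 0.67 ± 0.32 (adjusted p = 0.0853). The median over the 8 genes was 1.02, beside 0.02 over all genes tested. The comparison called 47.9% of all genes, and 26.1% of all genes as higher in females, so many other transcripts differed too. Without female wild type chow 3, 5 of the 8 genes remained called, Sox10 at 0.48 (adjusted p = 0.175) and Egr2 at 0.50 (0.194) no longer did, and the fold changes of Pmp22, Mbp and S100b were 0.75, 0.81 and 1.35. In that fit 23.3% of all genes were called higher in females. DESeq2 on all libraries called 6, without Egr2 (adjusted p = 0.0621). Leaving out single libraries ended the call of Sox10 in 11 of 30 cases and that of Egr2 in 16, and the other 5 kept theirs in each case.

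On HFD the sexes overlapped in all 8 genes, and Ngfr was the 1 gene called. That comparison called 29.3% of all genes, 14.4% as higher in females. Pmp22 had a median of 38.6 CPM in 7 HFD-fed females (26.4 to 52.0) and of 39.7 CPM in 7 HFD-fed males (33.3 to 48.6). S100b had medians of 1.57 CPM in HFD-fed females (1.19 to 2.47) and 1.75 CPM in HFD-fed males (1.501 to 2.12). The log2 fold changes of the 7 genes not called ran from -0.08 ± 0.35 (Egr2) to 0.51 ± 0.33 (Sox10). Over diets together, 6 genes were called as higher in females, against 30.8% of all genes called and 17.4% called in that direction: Ngfr (1.94 ± 0.30), S100b (0.80 ± 0.20), Sox10 (0.64 ± 0.22), Prx (0.64 ± 0.22), Mbp (0.57 ± 0.22) and Pmp22 (0.52 ± 0.13). Without female wild type chow 3 the count was 4, since Mbp (adjusted p = 0.0908) and Sox10 (0.0669) did not pass. Over all 30 single omissions the call of Mbp was lost in 23, of Sox10 in 8 and of Prx in 5, and those of Ngfr, S100b and Pmp22 in 0.

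**Figure D2:**
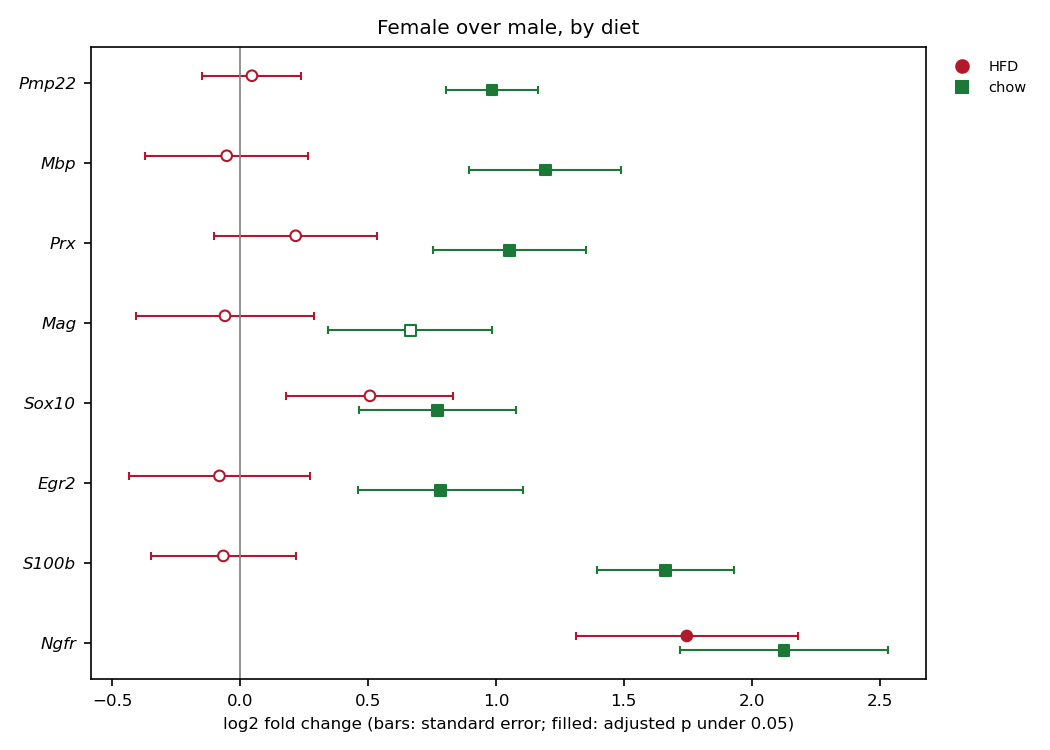
Female over male log2 fold change (horizontal axis) of each gene on HFD (circles) and on chow (squares), averaged over genotype, with standard errors. Filled symbols have an adjusted p under 0.05: 7 genes on chow, and Ngfr alone on HFD.

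Ngfr was called as higher in females on either diet, and its diet-by-sex interaction was -0.38 ± 0.63 on the log2 scale (adjusted p = 0.647). On HFD it had 0.596, 1.28 and 3.05 CPM in females (lowest, median, highest) and 0.0776, 0.513 and 1.13 CPM in males, a log2 fold change of 1.75 ± 0.43 (adjusted p = 0.0032). On chow it had 0.713, 1.88 and 5.17 CPM in females and 0.101, 0.545 and 1.12 CPM in males, a log2 fold change of 2.13 ± 0.41 (adjusted p = 0.000108). The sexes overlapped in either diet, with 4 of 7 HFD-fed females and 5 of 8 chow-fed females above every male. Leaving out any single library kept both calls.

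In wild-type females 3 of the 8 genes were lower on HFD than on chow, and none of them passed without 1 chow library. The same chow libraries also enter the sex comparison on chow, so the results are not independent. Pmp22 had 38.2, 39.6, 38.6 and 26.4 CPM in wild-type females on HFD, against 46.3, 37.3, 112 and 49.97 CPM on chow. Mbp had 22.9, 24.1, 31.3 and 10.2 CPM on HFD and 29.9, 22.3, 109 and 34.7 CPM on chow. S100b had 1.61, 1.30, 1.57 and 1.19 CPM on HFD and 2.49, 1.63, 6.92 and 2.68 CPM on chow. The third chow library is far above all others for each of these genes, and without it the ranges of Pmp22 and Mbp overlap, while those of S100b lie just apart.

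S100b was called at a log2 fold change of -1.28 ± 0.35 (adjusted p = 0.0096), Pmp22 at -0.78 ± 0.25 (0.0251) and Mbp at -1.15 ± 0.41 (0.0460). These 3 of 8 stand beside 25.4% of all genes called in wild-type females, 12.5% as lower on HFD. In the same comparison 4 of 6 macrophage, 3 of 5 tendon, 3 of 8 fibroblast and 2 of 6 adipocyte genes were called lower. So were 0 of 6 endothelial, 0 of 6 smooth muscle and pericyte and 1 of 5 satellite cell genes. Of 7 muscle fibre genes 1 was called higher, with all 7 fibre estimates above 0. The part of those cells was not tested. Without female wild type chow 3 the macrophage, tendon, fibroblast and adipocyte counts of lower genes were 2, 3, 3 and 0. With that library left out the fold changes of S100b, Pmp22 and Mbp were -0.66, -0.31 and -0.38, and 0 of the 8 genes passed in edgeR, with 1 at an unadjusted p under 0.05. That fit called 8.79% of all genes as higher and 8.14% as lower on HFD. The call of Mbp was lost in 18 of 30 single omissions, that of Pmp22 in 3 (this library and wild type HFD 3 and 4) and that of S100b in 1. DESeq2 on all libraries called the same 3 genes, S100b, Pmp22 and Mbp.

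In the other strata none of the 8 genes passed for diet. In MuRF1 -/- females, where 19.2% of all genes were called, 0 were called and 0 had an unadjusted p under 0.05 in edgeR. In MuRF1 -/- males, where 5.83% of all genes were called, 0 were called and 1, S100b, had an unadjusted p under 0.05. In wild-type males, where 0.349% were called, the counts were 0 and 0, and for the diet averaged over sex and genotype, where 0.827% were called, they were 0 and 0 as well. DESeq2 called 0 of the 8 in the 3 strata, and 0 of 3 for the averaged diet, where it gave the other 5 no adjusted p.

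In males the diet estimates were mostly above 0, and none passed. S100b had 1.63, 1.53 and 2.12 CPM in MuRF1 -/- males on HFD, against 1.42, 0.204, 0.781 and 1.03 CPM on chow. It had 1.75, 2.10, 1.91 and 1.501 CPM in wild-type males on HFD, against 1.70, 0.620, 1.39 and 0.880 CPM on chow. The MuRF1 -/- groups did not overlap and the wild-type groups did, and the log2 fold changes were 1.02 ± 0.44 (adjusted p = 0.142) and 0.66 ± 0.39 (adjusted p = 0.573). Of the 8 genes, 7 had a fold change above 0 in MuRF1 -/- males and 7 in wild-type males, with medians of 0.49 and 0.33 beside 0.05 and 0.00 over all genes.

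**Figure D3:**
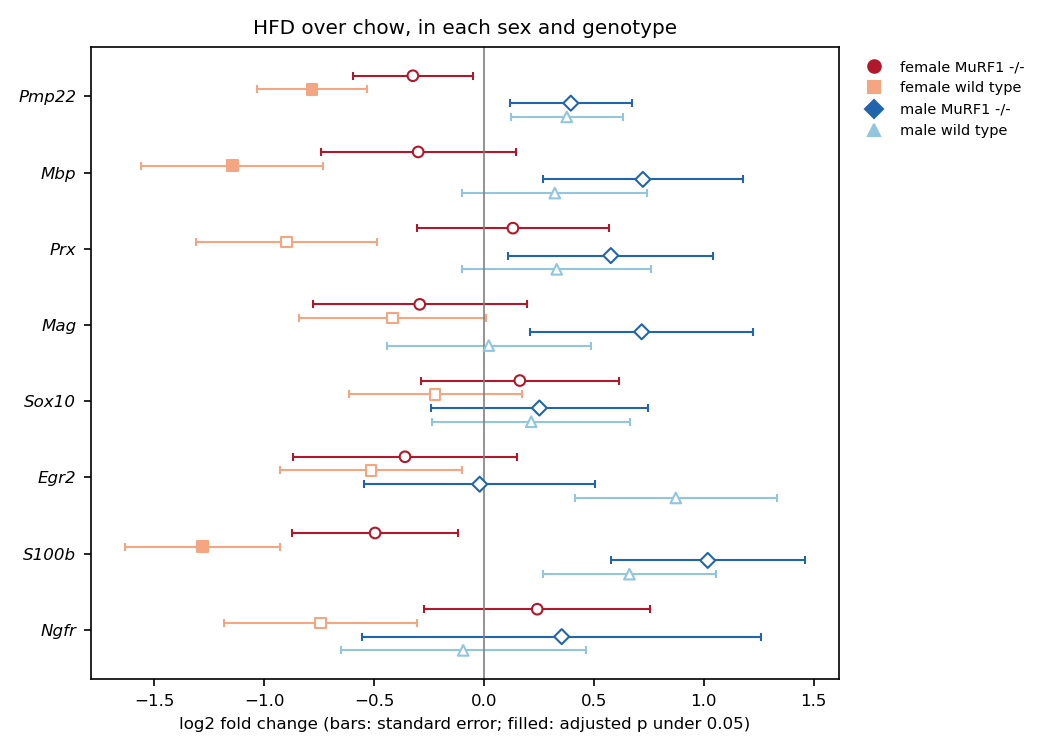
HFD over chow log2 fold change (horizontal axis) of each gene in the 4 combinations of sex and genotype, with standard errors. The filled symbols, with an adjusted p under 0.05, are S100b, Pmp22 and Mbp in wild-type females, at -1.28, -0.78 and -1.15.

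The difference between the sexes in the diet response was tested directly. The interaction is the HFD minus chow change in females minus that in males, averaged over genotype. It was -1.73 ± 0.39 for S100b (adjusted p = 0.000819), -0.94 ± 0.26 for Pmp22 (0.0057) and -1.25 ± 0.43 for Mbp (0.0234). All 8 estimates were below 0, with a median of -0.85 beside -0.03 over all genes, and 3 passed. The same interaction called 45.2% of all genes, and 23.6% of all genes as lower. Without female wild type chow 3 the 3 genes still passed, at -1.42 (S100b), -0.71 (Pmp22) and -0.86 (Mbp) with adjusted p of 0.0011, 0.0031 and 0.0389. That fit called 22.4% of all genes as lower. Without the 3 libraries high in Krt10, S100b and Pmp22 passed and Mbp did not (-0.87, adjusted p = 0.0557), beside 18.4% of all genes called lower.

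Transcripts of other cell types moved with these comparisons, in which 26.1% of all genes were called higher in chow-fed females and 23.6% were called lower in the interaction. In chow-fed females a fibroblast list of 8 genes summed to 900 to 1390 CPM, against 181 to 787 CPM in chow-fed males, and all 8 genes were called higher. A macrophage list had 80.8 to 115 CPM in chow-fed females and 15.5 to 66.7 CPM in chow-fed males, with 6 of 6 called. Adipocyte (5 of 6) and tendon (4 of 5) lists were also called higher in females. So were endothelial (4 of 6), smooth muscle and pericyte (5 of 6) and satellite cell (3 of 5) lists. Of 7 skeletal muscle fibre genes, 4 were called lower and 1 higher in chow-fed females, and their sum was 98310 to 116900 CPM there, against 123900 to 188400 CPM in chow-fed males. The 5 keratinocyte genes were called higher too, and 3 of the 8 chow-fed female libraries, those high in Krt10, stood apart. The sum was 39.1 to 76.0 CPM in those 3 and 1.48 to 2.07 CPM in the other 5, against 1.22 to 3.04 CPM in chow-fed males, and without the 3 libraries 0 of the 1 gene still tested was called. The fibroblast, macrophage, adipocyte and tendon counts on chow were again 8, 6, 5 and 4 without female wild type chow 3. The endothelial, smooth muscle and pericyte and satellite cell counts were 3, 4 and 2 in that fit, beside 23.3% of all genes called higher. On HFD the fibre sums were 121300 to 159700 CPM in females and 105500 to 142500 CPM in males. In the fit without female wild type chow 3, 5 of 8 fibroblast genes were called higher in HFD-fed females. The macrophage (0 of 6), adipocyte (0 of 6) and tendon (0 of 5) lists had none, beside 14.5% of all genes called higher. GC content moved with the comparisons as well: in the diet-by-sex interaction the median log2 change was -0.39 for genes under 41.5% GC and 0.38 for genes over 57.8% GC. The 8 genes have 48.3% to 61.8% GC, and with the trend removed the interaction called 4 of them, now with Prx (a correction chosen after seeing the data). Over the alternatives, this correction among them, that interaction called 5070 to 6717 of all genes, against 6340 in the main fit. In that interaction 4 of 8 fibroblast, 5 of 6 macrophage, 5 of 6 adipocyte and 4 of 5 tendon genes were called lower. In the fit without female wild type chow 3, 3 of 6 endothelial, 2 of 6 smooth muscle and pericyte and 1 of 5 satellite cell genes were called lower in it. The part of the other cell types in the results was not tested.

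Loss of MuRF1 went with a lower level of 1 of the 8 genes, Ngfr. Ngfr had 1.28, 2.67 and 0.970 CPM in female MuRF1 -/- mice on HFD and 0.912, 2.22, 3.05 and 0.596 CPM in female wild type on HFD. It had 1.007, 1.502, 2.25 and 0.742 CPM in female MuRF1 -/- mice on chow and 0.713, 3.25, 2.49 and 5.17 CPM in female wild type on chow. In either diet the female genotypes overlapped.

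In males Ngfr had 0.0776, 0.278 and 0.513 CPM in MuRF1 -/- on HFD, against 0.796, 0.840, 1.13 and 0.5002 CPM in wild type on HFD. It had 0.101, 0.204, 0.174 and 0.396 CPM in MuRF1 -/- on chow, against 0.693, 0.895, 0.770 and 1.12 CPM in wild type on chow. The chow groups did not overlap and the HFD groups overlapped at 1 library each. The male MuRF1 -/- values rest on 1 to 7 reads per library, so single reads weigh on them. In chow males 6 of 8 fibroblast, 5 of 6 macrophage and 4 of 6 endothelial genes were also called lower in MuRF1 -/- mice. So were 2 of 6 smooth muscle and pericyte, 1 of 5 tendon, 0 of 6 adipocyte and 0 of 5 satellite cell genes. Beside these stand 745 of 14024 genes called lower. The part of those cells in the Ngfr levels was not tested.

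Averaged over sex and diet the log2 fold change of Ngfr was -1.11 ± 0.31 (adjusted p = 0.0328). This 1 of 8 genes stands beside 4.39% of all genes called for genotype, 2.83% as lower. Leaving out single libraries ended the call in 13 of 30 cases, with fold changes between -1.27 and -0.996 and adjusted p between 0.00997 and 0.0640, and it did not pass without the 3 libraries high in Krt10 (adjusted p = 0.0553). In the same comparison 4 of 8 fibroblast genes and 4 of 6 macrophage genes were called lower in MuRF1 -/- mice (2 and 2 without female wild type chow 3), and their part in the Ngfr result was not tested. In single strata the estimates of Ngfr were -1.44 ± 0.72 in HFD males, -1.89 ± 0.71 in chow males, -0.06 ± 0.51 in HFD females and -1.04 ± 0.44 in chow females.

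In no single stratum did a gene of the 8 pass for genotype. In edgeR 0 were called in chow males (6.95% of all genes called, 1 of the 8 at an unadjusted p under 0.05), 0 in HFD males (0.264%, 0), 0 in chow females (0.0927%, 1) and 0 in HFD females (0.0713%, 0). The genotype-by-diet interaction called 0 (0.107%, with 0 at an unadjusted p under 0.05) and the genotype-by-sex interaction 0 (0.0285%, 0). DESeq2 called 0 of the 8 in the 4 strata and for genotype by sex, and 0 of 3 for genotype by diet, where it gave the other 5 no adjusted p. Comparisons of 1 stratum share their libraries with the averaged comparison. The other 7 genes had averaged genotype estimates between -0.43 ± 0.24 (Egr2) and 0.03 ± 0.22 (Prx). Myelin protein genes such as Pmp22 (-0.08 ± 0.13) and Mbp (0.02 ± 0.22) had estimates within 1 standard error of 0.

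Levels of most of the 8 genes rose and dipped together from library to library, those of Ngfr least. Of 28 pairs, 26 were correlated over the 30 libraries on log2 CPM, by a permutation test with 100000 resamples and Benjamini-Hochberg adjustment over the 28. Mbp and Pmp22 had Pearson's r = 0.949 and Spearman's rho = 0.928 (adjusted permutation p of 2.8e-05 and 5.6e-05, from raw p of 1e-05, the smallest the resampling can give). Mbp and Prx had r = 0.949 and rho = 0.883, with the same p-values. Without the 2 libraries farthest from the median of Pmp22 or Mbp, r was 0.917 and 0.913. With group means removed, so that only differences among mice of 1 group count, r was 0.962 and 0.947. Of the 28 pairs, 21 passed without the 2 farthest libraries and 18 with group means removed, so whether a weaker relation passed depended on the setting. With group means removed, r went from 0.522 to 0.112 for Ngfr and Pmp22, and from 0.628 to 0.532 for Mag and S100b. Neither pair passed there (adjusted permutation p = 0.791 and 0.0513). Whether r differed between settings was not tested.

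The ratio of Mbp to Pmp22 varied 2.51 times over the libraries (0.387 to 0.972), and that of Ngfr to Pmp22 varied 53.0 times (0.00195 to 0.103). Female wild type chow 3 had the highest ratio of Mbp to Pmp22, while its ratio of Ngfr to Pmp22 was exceeded in 13 libraries. For Ngfr the r with the other 7 lay between 0.257 and 0.522, and the 2 pairs not called were Ngfr with Egr2 and with Mag. With group means removed the r of Ngfr lay between -0.045 and 0.320, and none of its pairs passed. Sox10 had r = 0.833 with Prx and 0.780 with Mbp, and Egr2 had r between 0.497 and 0.557 with the members other than Ngfr. Egr2 was counted at 4 to 54 reads per library and Sox10 at 9 to 78. Whether these correlations differ was not tested.

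**Figure D4:**
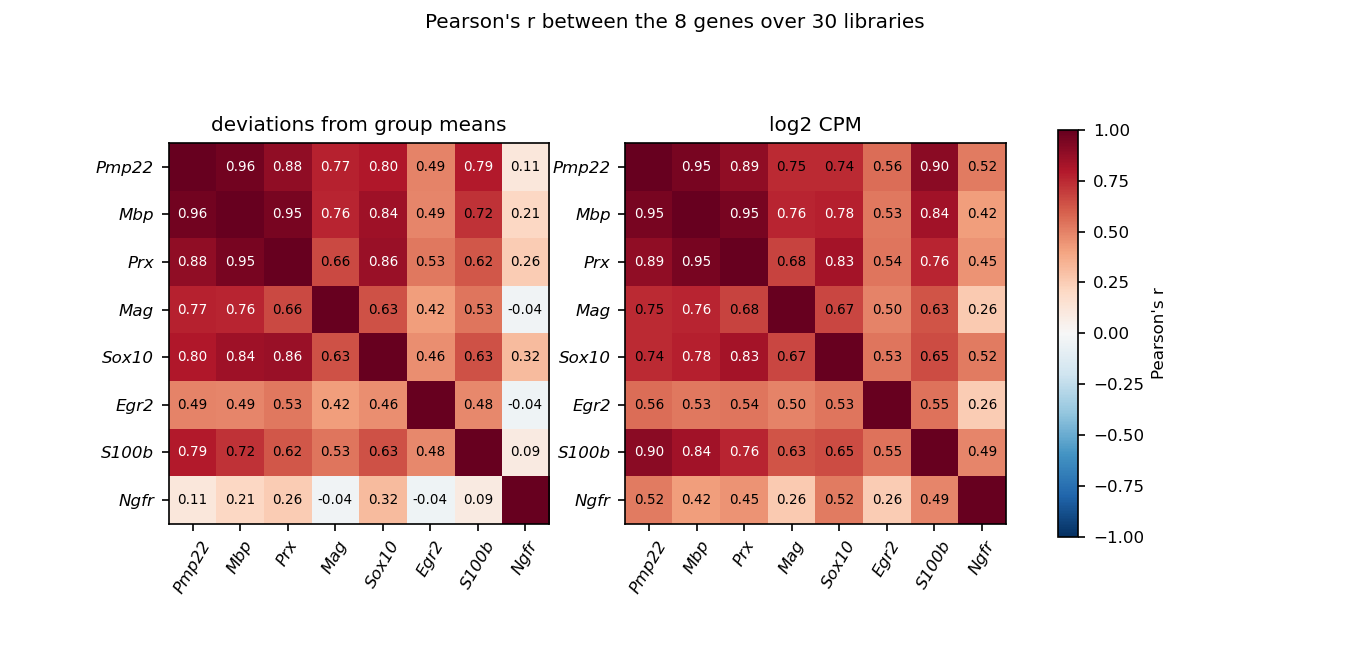
Pearson's r between each pair of the 8 genes over 30 libraries, from deviations from group means (left) and from log2 CPM (right). The highest values are those of Mbp with Pmp22 (0.962 left, 0.949 right) and of Mbp with Prx (0.947 left, 0.949 right), and the Ngfr row is the palest on either side.

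**Figure D5:**
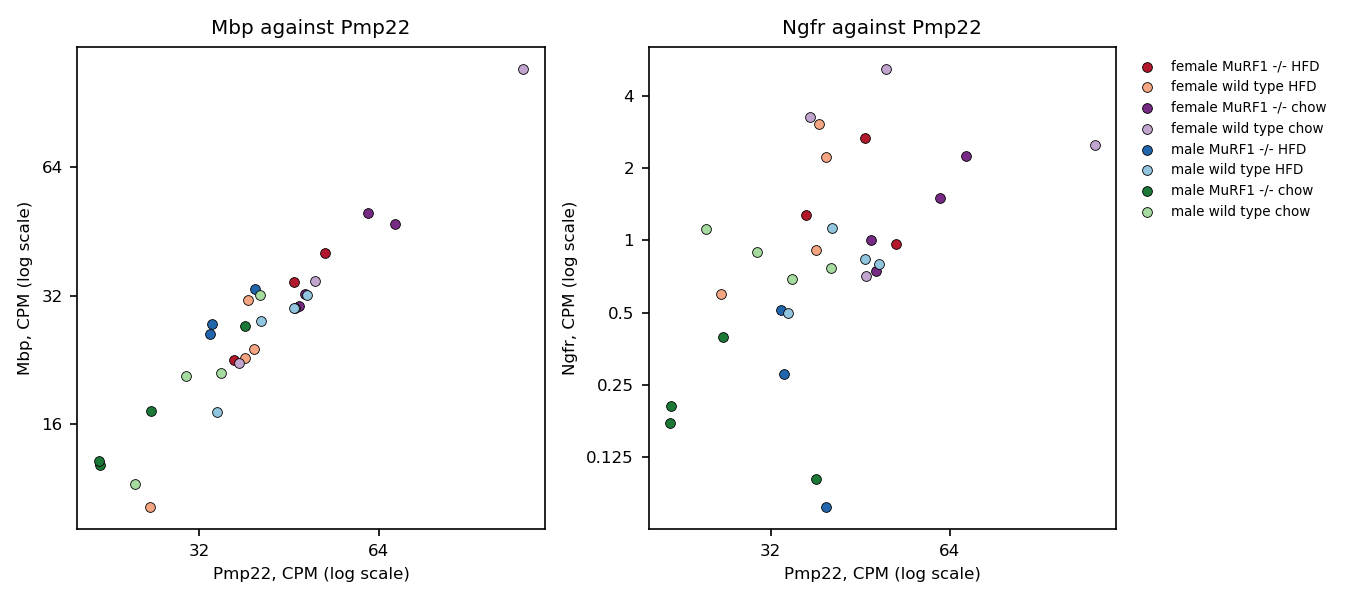
Mbp (left) and Ngfr (right) against Pmp22, in CPM on log axes, with 1 point per library coloured by group. Mbp follows Pmp22 over the 30 libraries (r = 0.949), while male MuRF1 -/- libraries lie at the bottom of the Ngfr plot, between 0.0776 and 0.513 CPM.

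Among all other genes tested, those whose log2 CPM was most like the mean of the 8 included Drp2 (r = 0.920 over 30 libraries) and Ndrg1 (0.918). Drp2 binds periaxin at the Schwann cell surface, and mutations of NDRG1 in humans cause a demyelinating neuropathy. Others were Plekha4 (0.901), Vat1l (0.880), Adcy5 (0.873), Mgat3 (0.867), Gatm (0.866), Pygb (0.862) and Sfrp5 (0.857). Without female wild type chow 3 these 9 values lay between 0.816 and 0.884. Ngfr had other nearest genes, Smoc2 (0.839, and 0.515 with group means removed) and the interleukin receptor Il4ra (0.834, and 0.737 with group means removed). Smoc2 belongs to the fibroblast list used above, and the part of fibroblasts in the level of Ngfr was not tested.

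Further nerve genes were read in the same comparisons as 6 lists. For sex on chow the shares of all genes to set beside the counts are 47.9% called and 26.1% called higher in females. The counts without female wild type chow 3, where 23.3% of all genes were called higher, were added after seeing the data. Of a list of 16 myelin proteins and lipid enzymes, 14 could be tested and 11 were called higher in chow-fed females than in chow-fed males, with a median log2 fold change of 0.81 over the 14, beside 0.02 over all genes. With that library left out, 6 of the 14 were called and the median was 0.57. Among the 11 were Drp2 (1.61 ± 0.26), Ugt8a, which makes the myelin lipid galactosylceramide (1.76 ± 0.39), and Gldn, which organizes nodes of Ranvier (1.20 ± 0.31), and without that library these 3 had 1.27, 1.28 and 0.90 and were still called. On HFD 0 of the 14 were called in edgeR for sex, with 0 at an unadjusted p under 0.05, beside 29.3% of all genes called. Of the receptors and ligands of Schwann cells 14 of 15 were higher in chow-fed females (12 of 15 without female wild type chow 3), including Gfra1 (1.14 ± 0.17) and Ret (0.82 ± 0.15), partners in GDNF signalling, and Ntrk2 (1.58 ± 0.24).

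Markers of immature and repair Schwann cells were called in 3 of 4 (Cdh19 at 1.65 ± 0.32), perineurial markers in 5 of 5 (Cldn1 at 2.20 ± 0.34), and axon transcripts in 1 of 2 (Stmn2 at 0.56 ± 0.16), all higher in chow-fed females. The counts were 3 of 4, 4 of 5 and 1 of 1 without female wild type chow 3. Of 11 transcription factors 6 were higher and 1, Jun, was lower (-0.48 ± 0.10). Beside these counts stand 47.9% of all genes called for sex on chow, 26.1% as higher in females. In the diet-by-sex interaction 6 of 14 myelin genes, 11 of 15 receptors and ligands, 3 of 4 immature and repair markers and 4 of 5 perineurial markers were called lower, beside 45.2% of all genes called and 23.6% called lower. They were 5 of 14, 11 of 15, 2 of 4 and 4 of 5 without female wild type chow 3. Several of these genes are also expressed by other cells of muscle.

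For genotype averaged over sex and diet, 1 of 14 myelin genes was called, Ncmap, a myelin-associated protein of Schwann cells, beside 4.39% of all genes. This count is near that of all genes and is no result about the list. Ncmap was higher in MuRF1 -/- mice by 0.93 ± 0.24 (adjusted p = 0.0219). Where Ncmap lies relative to Trim63, the gene of MuRF1, was not examined, and a link of its level to that locus was not tested. Ncmap averaged 2.94 ± 1.60 CPM in female MuRF1 -/- and 1.12 ± 0.38 CPM in female wild type on HFD (SD, n = 3 and 4). On chow it averaged 2.89 ± 0.92 CPM in female MuRF1 -/- and 2.12 ± 1.51 CPM in female wild type (SD, n = 4 each). In males it averaged 2.52 ± 0.26 CPM in MuRF1 -/- and 1.08 ± 0.37 CPM in wild type on HFD (n = 3 and 4). On chow it averaged 1.52 ± 0.93 CPM in male MuRF1 -/- and 0.95 ± 0.63 CPM in male wild type (n = 4 each). The MuRF1 -/- mean was the higher of each pair, and the HFD groups of males did not overlap. Ncam1, of the immature and repair list, was lower in MuRF1 -/- mice by 0.39 ± 0.12 (its log2 fold change was -0.39, adjusted p = 0.0456). With female wild type chow 3 left out, Ncmap had 1.09 (adjusted p = 0.0037) and Ncam1 was no longer called, at -0.35 (0.0887). The receptor and transcription factor lists had 0 genes called for genotype in edgeR, with 3 of 15 and 3 of 11 at an unadjusted p under 0.05, beside 19.7% of all genes.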

How the data were processed

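RNA of gastrocnemius muscle was sequenced from mice of 2 genotypes, sexes and diets. The authors deposited raw read counts per gene, 1 table per library. The tools bcl2fastq and featureCounts and the build mm10 are listed per the submitters' processing notes. For the aligner, annotation release and strand setting, the entry is: not given in the sources used here. Per the labels' protocols, the libraries came from a stranded polyA kit. Symbols and coordinates are from GENCODE M21, which held 37693 of 39017 identifiers. Promoter sequence is RefSeq's, on GRCm38.p6.

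The counts were fitted with edgeR 4.0.16 in R 4.3.3: TMM scaling, a filter with a minimum count of 10 (filterByExpr), 1 coefficient for each of 8 groups, robust dispersion and the quasi-likelihood F-test, with Benjamini-Hochberg adjustment over 14024 genes at 0.05. The biological coefficient of variation was 14.2%. A standard error is the log2 fold change divided by the square root of F. Correlations used log2 CPM with a prior count of 2. On simulated data with the size of these libraries, the median fitted fold lay close to the fold put in, and not every changed gene was called. Over 42 pairs of libraries of 1 group the lowest chi-square per gene was 4.67, so none repeated another.

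The 8 genes, the gene lists and the contrasts were chosen with earlier results of these data known. Named genes are the 8, the 10 most like their mean and the 2 most like each, and up to 4 genes per list with the smallest p; some of these genes are not reported here. Alternatives were DESeq2 1.42.0, no scaling, no count filter, other groupings, a replicate block, GC correction and list counts without 1 library (both added after seeing the data), and leaving out libraries. Replicates are separate animals by their numbers. CPM floors cover counting error only.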

Additional observations from a re-analysis of the deposited data

Results flagged for a closer look

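Of 48 sets of 4 libraries (8 genes in 6 groups), 8 had a library far from the other 3 by Dixon's gap ratio, which chance exceeds in about 1 of 20 sets. Female wild type chow 3 gave 5 of them: Pmp22 at 112.1 CPM (the others 37.3 to 49.97), Mbp at 109 CPM (22.3 to 34.7), Prx at 42.6 CPM (8.73 to 13.3), Mag at 2.22 CPM (0.888 to 0.998) and Egr2 at 3.63 CPM (1.21 to 1.33). The same library was the highest of 30 in the summed fibroblast, macrophage, endothelial, perineurial and satellite cell lists, at 1.28 to 2.15 times the median of the others, and stood high in the tendon (2.81 times), adipocyte (2.60 times) and keratinocyte lists (21.5 times). The 8 genes summed to 3.39 times their median there. The part of those cells in its level was not tested.

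The remaining 3 were Pmp22 in female wild type HFD 4 at 26.4 CPM (the others 38.2 to 39.6), Egr2 in female MuRF1 -/- chow 3 at 0.846 CPM (1.28 to 1.32), and Sox10 in male MuRF1 -/- chow 1 at 2.43 CPM (0.781 to 1.03).

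The diet response differed between the sexes, by the interaction test of edgeR, for S100b (-1.73), Mbp (-1.25) and Pmp22 (-0.939). Each is a log2 change in females minus that in males, and the adjusted p were 0.000819, 0.0234 and 0.00573. The same interaction called 45.2% of all genes, and 23.6% of all genes as lower, so many other transcripts differed too.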

How the results depend on the processing

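Counts are of the 8 genes called. For genotype, where 1 was called, the count was 0 without the count filter, with all 31 libraries grouped by their own titles, and without the 3 libraries high in Krt10, and 0 to 1 when single libraries were left out. For diet in wild-type females, where 3 were called, it was 1 without the filter, 1 in a fit to the 2 groups alone, 1 with the libraries whose title and animal agree, 0 by own titles, 0 without the libraries high in Krt10, 1 without wild-type libraries with Trim63 under 150 CPM (chosen after seeing the data), and 0 to 4 when single libraries were left out. For sex averaged over diet, where 6 were called, it was 3 without the filter, 3 without the libraries high in Krt10 and 3 to 6 when single libraries were left out. The cause was not tested. Of all genes, 5 to 3892 were called for diet in wild-type females over the alternatives, against 3558, and 128 to 1203 for genotype, against 615. For sex averaged over diet 3288 to 5226 were called, against 4317.

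Replicate numbers did not pair the libraries: of 28 same-numbered pairs, 11 had deviations from group means that correlated over 0.1 (r from -0.286 to 0.457), and 21 of 56 libraries were closest to their own number. With a replicate block the counts were 1, 3 and 6, as without it. The correlated pairs were 26 with all 31 libraries, 21 without the 2 farthest libraries and 18 with group means removed. No called gene changed sign in any alternative, and the limit of depth falls on Ngfr, Mag, S100b, Egr2 and Sox10, with 1 to 9 reads in their lowest library.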

Other observations

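Jun, the transcription factor that drives the repair state of injured Schwann cells and is expressed in many other cells, was called in the direction opposite to S100b, Pmp22 and Mbp and to the other transcription factors called. In wild-type females it averaged 70.8 ± 10.0 CPM on HFD and 45.5 ± 8.71 CPM on chow (SD, n = 4 each), and rose by 0.63 ± 0.15 on the log2 scale (edgeR, adjusted p = 0.0034). With female wild type chow 3 left out it was 0.63 (0.0115), while the lower levels of S100b, Pmp22 and Mbp no longer passed. Of the 11 transcription factors tested, the others called there were lower: Zeb2 (-0.83), Nab1 (-0.48) and Tead1 (-0.39). Without female wild type chow 3 these 3 factors had -0.69, -0.51 and -0.43 and still passed (edgeR, adjusted p = 0.0084, 0.0277 and 0.0351). On all libraries this comparison called 25.4% of all genes, 12.5% as lower and 1804 of 14024 genes as higher. The 1 higher call of 11 is near that share and is no result about the list. Of the immature and repair list 2 of 4 were called lower, among them Cdh19 (-1.51), and 0 of 4 without that library (edgeR). The diet-by-sex interaction of Jun was 0.46 ± 0.15 (edgeR, adjusted p = 0.0136), of opposite sign to those of S100b, Pmp22 and Mbp. Of the other factors 5 had a negative interaction that passed, beside 45.2% of all genes called and 23.6% called lower. Across the 30 libraries the r of Jun with the mean of the 8 genes was -0.411.

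The library whose animal is in no title held 31.5 CPM of Pmp22, 17.8 of Mbp, 6.58 of Prx, 1.24 of Egr2, 0.858 of Sox10, 0.858 of S100b, 0.477 of Mag and 0.286 of Ngfr. All 8 lie within the range of the other 30 libraries, whose library sizes were adjusted by the trimmed mean of M values while this one was not.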
